A study of Mus musculus with 16 samples.

Results

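Whole HM1 tumours from mice given mannose were compared with whole HM1 tumours from control mice. HM1 is a mouse ovarian cancer cell line that grows as a tumour in the mouse. The libraries were those whose labels name tumour tissue as the source, 10 of the 16 libraries of the series, 5 from mannose-supplemented and 5 from control tumours. The other libraries, of sorted CD8 T cells, were not used here. Each tumour library gave 53112 gene symbols, of which 13282 had at least 1 TPM in at least 5 of the 10 tumours and are described here. TPM gives the abundance of a gene's transcripts per unit of their length, scaled to a common total in each library.

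Both groups share the HM1 tumour, and the treatment label of one is control and that of the other is mannose supplementation. The labels give no dose, route, duration, mouse strain or age. The title of the series names therapy with an antibody against PD-1, but no sample label says whether a tumour received one. Nor do they say that the replicates came from separate animals, so tests here measure only sample-to-sample spread, which may be technical. The read depth behind the TPM values is unknown. Tumours are named below by group and replicate number, as control 1 to 5 and mannose 1 to 5.

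A whole tumour is a mixture of carcinoma cells with fibroblasts, vessels, macrophages, T cells and pieces of the tissue it grew in. In bulk RNA, fewer cells of a type and less RNA per cell cannot be told apart. Mannose is a simple sugar that enters cells through glucose transporters and is phosphorylated by hexokinase. The enzyme Mpi then passes it to glycolysis, or Pmm2 and Gmppb turn it into GDP-mannose, from which the glycans of secreted and membrane proteins are built. Macrophages also carry receptors that bind mannose-rich glycans, among them Mrc1.

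The markers of the labelled tissue were largely present. The keratins Krt8 and Krt18, which mark epithelium, measured 1096 to 1803 and 1072 to 1665 TPM, and the ovarian cancer antigen Msln measured 21.01 to 45.6 TPM. The epithelial adhesion gene Epcam stayed at or below 0.24 TPM in all 10 tumours. Macrophage genes (Csf1r, 17.7 to 148 TPM), endothelial genes (Pecam1, 7.50 to 33.99 TPM) and fibroblast genes (Dcn, 9.76 to 66.3 TPM) were found in every tumour. The keratinocyte genes Krt5 and Krt14 and the mesothelial gene Upk3b stayed below 0.2 TPM throughout. Skeletal muscle genes were the exception, and ranged from 0.13 to 334 TPM for Acta1.

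Control 1 stood apart from the rest. It had the fewest symbols at 1 TPM or more, 12345 against 13222 to 13820 in the others, and the highest share of TPM in ribosomal protein genes, 29.5% against 20.2% to 25.6%. Its correlation with the other libraries on the log2(TPM + 1) scale averaged 0.947, against 0.960 to 0.975 for the other 9. Mannose 3 lay at the end of that range, next to control 3 (0.964), and had the most symbols at 1 TPM or more, 13820. Since it was also the highest tumour for most genes of several lists below, several results are also given without one of these tumours or without both. By 2-sided exact permutation tests over the 10 tumours, none of the 6 library measures compared passed as different between mannose and control (adjusted p of at least 0.595). They were the number of symbols and the shares of TPM in the 10 highest symbols and in ribosomal protein, mitochondrial, predicted and haemoglobin genes.

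Control 1 departed from the other tumours by transcript length. The genes were split into 4 classes of equal size by transcript length, and the deviation of each tumour from the gene's median over the 10 tumours was taken on the log2(TPM + 1) scale. For control 1 the median deviation was -0.004 in the class of shortest transcripts, -0.31 in class 2, -0.59 in class 3 and -0.84 in the class of longest transcripts. The other 9 tumours stayed between -0.11 and 0.12 in every class. The classes held transcripts of 75 to 1489, 1490 to 2493, 2494 to 3798 and 3799 to 21697 bases, and 97.7% of the tested genes had a length. Long-transcript genes that were low in control 1 included Mbnl1, a splicing factor, at 21.7 TPM against 158.8 to 203 in controls 2 to 5. Lrrc8d, a volume-regulated channel subunit, measured 18.5 TPM against 142 to 236 there.

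**Figure D1:**
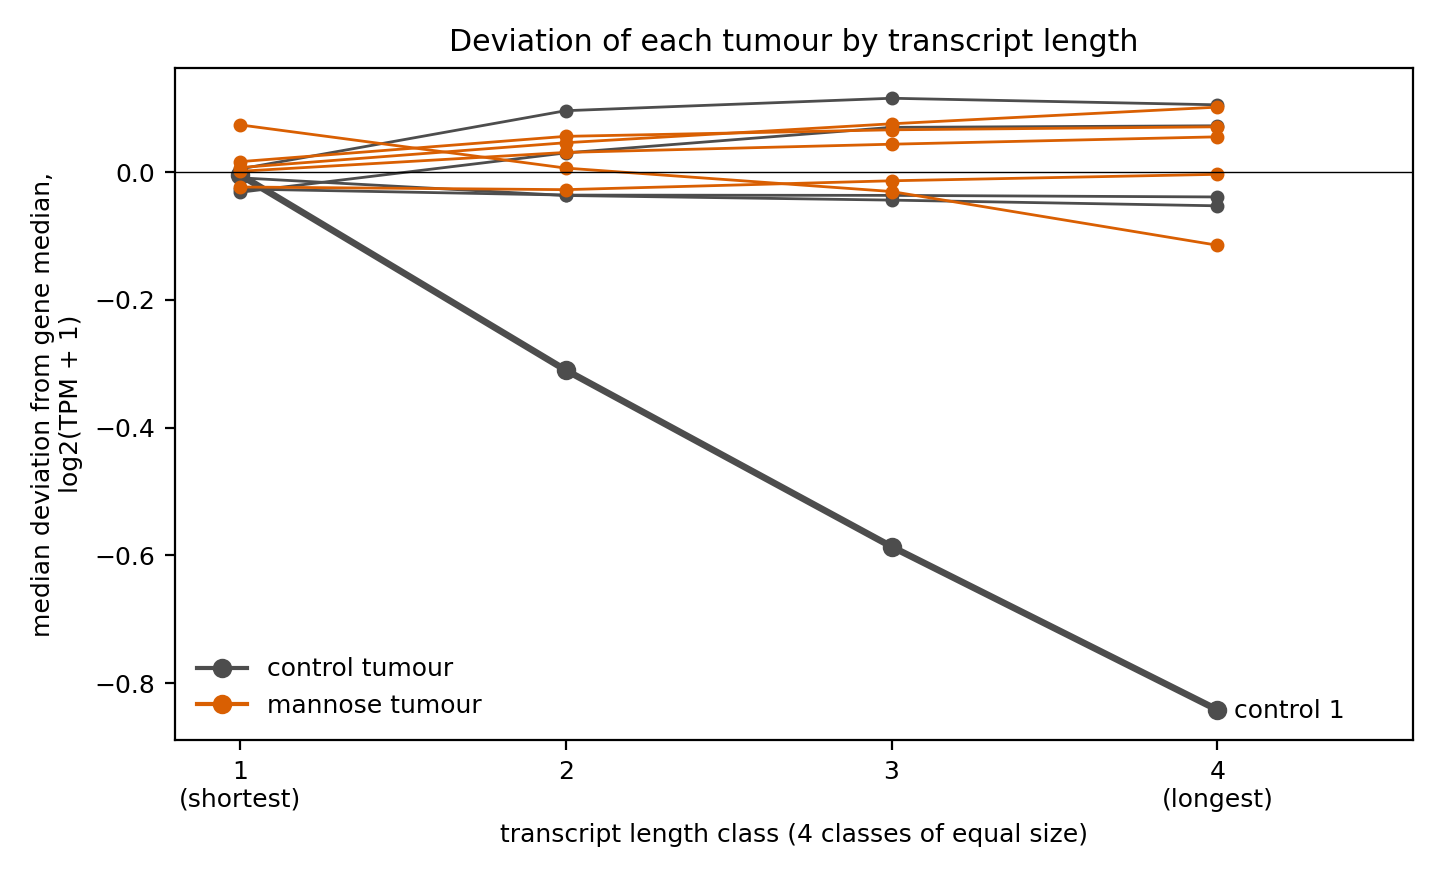
Median deviation of each tumour from the gene's median over the 10 tumours (log2(TPM + 1), y axis) in each of 4 transcript length classes (x axis), 1 line per tumour. Control 1 drops from -0.004 in the shortest to -0.84 in the longest class, while the other 9 tumours stay between -0.11 and 0.12.

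The comparison of mannose with control asked which genes differed in the whole tumour. By limma on log2(TPM + 1), with Benjamini-Hochberg adjustment, 0 of 13282 genes passed an adjusted p of 0.05 (0%), and the smallest adjusted p was 0.754. At an unadjusted p under 0.05, 735 genes (5.53%) were higher and 92 (0.693%) lower with mannose. No overlap between the groups was found for 200 genes with higher values (1.51%) and 17 with lower values (0.128%). Of the genes tested, 9876 (74.4%) had the higher mean in mannose tumours, and the median log2 difference was 0.12. Log2 differences below are mannose minus control, followed in brackets by limma's 95% interval, which is not adjusted for the number of genes. No gene named below had an adjusted p under 0.754.

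That excess of higher means was larger for long transcripts and smaller without control 1. The median log2 difference was 0.04 for the shortest class of transcripts, 0.09 and 0.13 for the middle classes and 0.19 for the longest. Without control 1 the corresponding medians were 0.05, 0.02, 0.01 and 0.01, but higher calls still outnumbered lower ones. At an unadjusted p under 0.05, 672 genes (5.08%) were then higher and 212 (1.6%) lower, and 242 (1.83%) and 66 (0.499%) had no overlap. Without mannose 3, 556 genes (4.24%) were higher and 89 (0.678%) lower at that level. Without both tumours, 668 (5.11%) were higher and 248 (1.9%) lower, and 421 (3.22%) and 136 (1.04%) had no overlap. With all 10 tumours, genes without overlap numbered 29, 49, 55 and 65 higher and 11, 5, 1 and 0 lower from the shortest to the longest class. With the length trend of each library removed, a step chosen after seeing the data, 425 genes (3.27%) were higher and 458 (3.53%) lower at an unadjusted p under 0.05. Quantile normalization gave 303 higher and 441 lower, and median-ratio scaling 346 and 421. Lists of genes are therefore given below relative to the median of all genes, and no gene passed the adjusted threshold under any of these settings.

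The tumours of a group differed widely from each other. The within-group SD had a median of 0.28 on the log2(TPM + 1) scale, with 0.12 at the 5th and 0.68 at the 95th percentile of genes. Group accounted for a median of 8.10% of a gene's variance. The median 95% interval of a log2 difference, not adjusted for the number of genes, reached 0.38 to either side. Smaller differences in a typical gene were not detectable with these samples. Larger ones could also miss the adjusted threshold, as did a difference of 1.02 in Grem1. Controls spread more than mannose tumours, with median SDs of 0.33 and 0.19, and a larger SD in controls for 78.6% of genes. Without control 1 the control median was 0.20 and the share 51.8%.

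Genes induced by interferon-gamma varied more between tumours than between groups. Interferon-gamma is the T and NK cell cytokine that switches on antiviral and antibacterial GTPases, T cell chemokines and antigen presentation. All 22 tested genes of the list were highest in mannose 3, and 15 of them were lowest in control 1 and the other 7 in mannose 5. The mean level of the list, in log2(TPM + 1), was 5.88 in mannose 3, 4.86 in control 5, 4.82 in mannose 1 and 4.02 in control 2. The remaining tumours lay between 2.25 (control 1) and 3.29 (control 3). Thus both groups held tumours with high and with low levels.

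Gbp2, an interferon-induced GTPase, measured 5.47, 31.4, 17.99, 8.52 and 107 TPM in controls 1 to 5 and 91.3, 12.2, 190.0, 12.2 and 6.26 TPM in mannose 1 to 5. The chemokine Cxcl9, which draws CXCR3-bearing T cells, measured 2.28, 14.6, 7.45, 3.42 and 28.3 TPM in controls and 45.3, 6.07, 95.3, 7.19 and 5.01 TPM in mannose tumours, in the same order. In both genes, control 5, mannose 1 and mannose 3 were the high tumours, and the groups overlapped. The log2 difference was 0.49 (-1.64 to 2.62) for Gbp2 and 0.96 (-0.88 to 2.80) for Cxcl9. The whole list had a median log2 difference of 0.43, or 0.31 above that of all genes, with 22 of 22 means higher and 0 of 22 at an unadjusted p under 0.05. Without mannose 3 the median was 0.18 below all genes, with 8 of 21 means higher, and without control 1 and mannose 3 together it was 0.36 below, with 2 of 21 means higher. The cytokine gene itself, Ifng, reached 1 TPM only in mannose 1 (1.11) and mannose 3 (2.17).

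Promoter sequences of genes of this list are shown because the genes moved together from tumour to tumour. The 250 bases before the RefSeq gene start (build GRCm38.p6) were searched on both strands for the interferon-stimulated response element in the form of GAAA, any 2 bases and GAAA again. It was found for 12 of the 15 genes of the list with a RefSeq promoter and for 936 of 27025 genes in all (3.46%). A motif like the gamma-activated site of STAT dimers (TTC, any 3 bases, GAA) was found for 7 of the 15 and for 7.25% of tested genes with a promoter. In the type I interferon list, 9 of 18 genes held the response element, and in the skeletal muscle list 0 of 12. The sequences below are written 5′ to 3′ on the gene's own strand, and capitals mark the response element or its reverse complement.
Gbp2b (chr3:142594597-142594846, plus strand): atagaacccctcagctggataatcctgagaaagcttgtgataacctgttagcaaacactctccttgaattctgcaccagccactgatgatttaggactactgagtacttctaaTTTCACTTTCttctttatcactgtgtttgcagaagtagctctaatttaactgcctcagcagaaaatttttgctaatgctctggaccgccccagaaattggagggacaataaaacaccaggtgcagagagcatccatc
Igtp (chr11:58199306-58199555, plus strand): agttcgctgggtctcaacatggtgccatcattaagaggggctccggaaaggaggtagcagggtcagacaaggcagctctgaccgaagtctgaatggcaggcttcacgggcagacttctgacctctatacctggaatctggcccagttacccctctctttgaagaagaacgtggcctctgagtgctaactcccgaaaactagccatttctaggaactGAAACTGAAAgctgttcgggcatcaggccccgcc
Irgm2 (chr11:58214727-58214976, plus strand): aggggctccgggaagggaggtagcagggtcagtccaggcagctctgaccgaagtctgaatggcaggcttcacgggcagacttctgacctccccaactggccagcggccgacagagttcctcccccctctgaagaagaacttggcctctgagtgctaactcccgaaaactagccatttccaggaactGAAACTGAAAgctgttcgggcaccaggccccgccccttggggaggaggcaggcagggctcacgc
Cxcl10 (chr5:92348890-92349139, minus strand): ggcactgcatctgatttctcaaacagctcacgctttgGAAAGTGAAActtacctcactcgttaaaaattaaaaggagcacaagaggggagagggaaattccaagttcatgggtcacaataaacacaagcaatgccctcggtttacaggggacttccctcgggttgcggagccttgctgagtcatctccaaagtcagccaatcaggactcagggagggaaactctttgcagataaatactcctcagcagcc
The paralogs Igtp and Irgm2, both interferon-induced GTPases, hold the motif on the same strand within a like stretch, 34 and 64 bases before the start. Gbp2b holds it on the opposite strand 137 bases before the start. In Cxcl10, which encodes another CXCR3 ligand, it lies 213 bases before the start. Igtp measured 5.83 to 135 TPM over the 10 tumours, Irgm2 2.33 to 64.1, Gbp2b 1.66 to 51.4 and Cxcl10 9.52 to 129.8, each with its highest value in mannose 3. Tgtp1 and Tgtp2, and Gbp2 and Gbp2b, are near-identical or similar copies between which reads may be split, so their separate levels are uncertain.

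Skeletal muscle genes had the largest spread of all lists. Acta1, the actin of the muscle sarcomere, measured 11, 68.2, 334, 174 and 44.9 TPM in controls and 13.4, 0.19, 184, 0.13 and 44.4 TPM in mannose tumours. The fast troponin Tnnc2 measured 3.44, 13.9, 68.4, 39.7 and 4.44 and 2.23, 0, 49.4, 0 and 11.9 TPM. Control 3, mannose 3 and control 4 were high in both, mannose 2 and mannose 4 had almost none, and the groups overlapped. Control 3 was the highest tumour for 15 of the 16 tested genes of the list, and mannose 2 and mannose 4 the lowest, ties included, for 9 and 10. The exception in level was Eno3, a muscle enolase, at 239.8 to 349 TPM. All 16 means were lower in mannose tumours, at a median log2 difference of -1.34 (-1.45 relative to all genes), and 0 of 16 had an unadjusted p under 0.05. Without mannose 3, 13 of 15 genes had one, as lower values (0.678% of all genes). Without control 1 as well, 13 of 14 did (1.9% of all genes) and 4 had no overlap (1.04%). Mannose 3 had the highest mean level of this list among mannose tumours (4.52) and control 1 the lowest among controls (1.99). Leaving them out therefore moves the groups apart, and genes of the list followed the same tumours. These counts are thus no independent evidence of a difference. Whether the muscle share of a sample accounts for other differences was not tested.

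**Figure D2:**
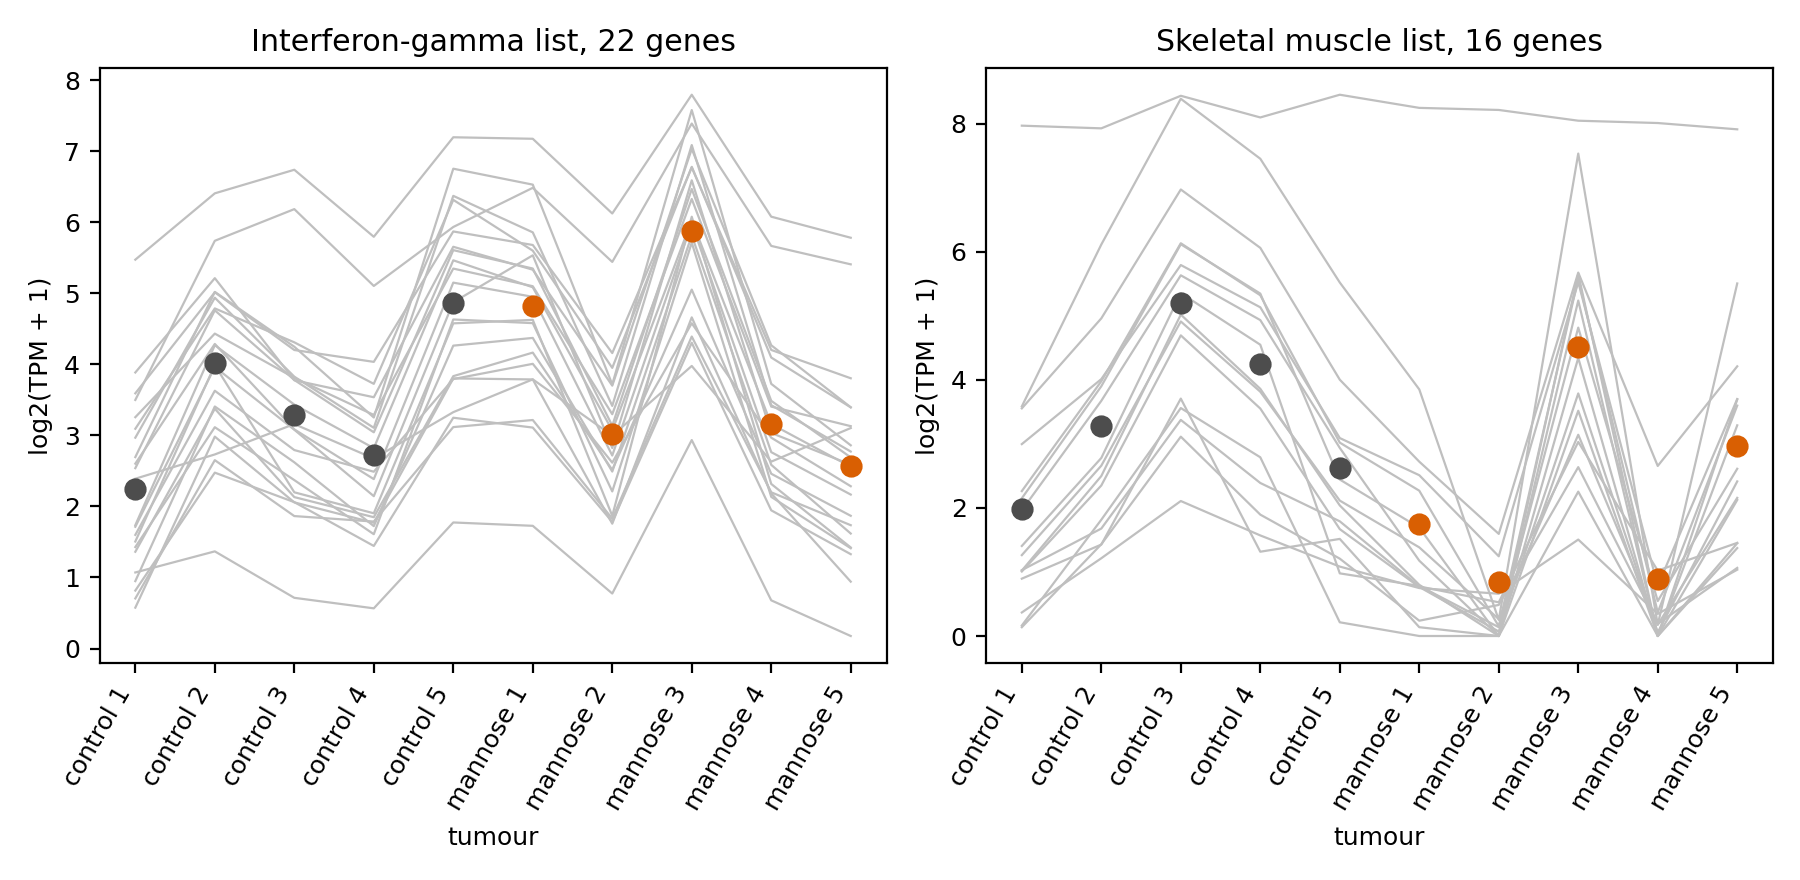
log2(TPM + 1) of each tested gene (grey lines) and their mean (points; grey control, orange mannose) in each of the 10 tumours, for the interferon-gamma list (left, 22 genes) and the skeletal muscle list (right, 16 genes). All 22 interferon-gamma genes peak in mannose 3, and most muscle genes are near 0 in mannose 2 and mannose 4, with Eno3 the clearest exception.

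Macrophage genes had higher means in mannose tumours in 19 of 20 cases, and their median log2 difference was 0.49 (0.38 above all genes). Of these, 7 of 20 had an unadjusted p under 0.05 (5.53% of all genes were higher at that level) and 2 had no overlap (1.51% of all genes). The pair without overlap belongs to one family of tetraspanning membrane proteins of myeloid cells. Ms4a4a measured 13.2, 24.5, 27.9, 25.8 and 15.2 TPM in controls and 43.4, 33.02, 41.8, 36.5 and 38.1 TPM in mannose tumours, a log2 difference of 0.87 (0.44 to 1.31). Ms4a6d measured 22.7, 44.7, 47.9, 38.1 and 40.9 and 73.8, 53.1, 82.2, 52.03 and 51.8 TPM, a difference of 0.69 (0.23 to 1.15). Every mannose tumour was above every control for both. The general macrophage markers Adgre1, Csf1r and Cd68 had log2 differences of 0.62 (-0.20 to 1.45), 0.58 (-0.46 to 1.62) and 0.23 (-0.24 to 0.70) and overlapped between the groups. Mannose 3 was the highest tumour for 17 of the 20 genes and control 1 the lowest for 14. Without both, 15 of 20 means were higher and the median was 0.09 above all genes. At an unadjusted p under 0.05, Mrc1, Cd163, Ms4a7, Ms4a4a and Ms4a6d were then higher (5.11% of all genes) and Cd14 lower (1.9%).

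Genes of alternative macrophage activation, the tissue-repair programme driven by IL-4 and IL-13, were higher in 13 of 15 means, with a median of 0.34 (0.23 above all genes) and 6 higher at an unadjusted p under 0.05 (5.53% of all genes). Arg1, which breaks down arginine, measured 89.7, 169, 110.5, 133 and 121 TPM in controls and 437, 219, 256, 168 and 199 TPM in mannose tumours, with mannose 1 highest. Only mannose 4 lay within the control range, just under control 2, and the log2 difference was 0.98 (0.45 to 1.51). The eosinophil chemokine Ccl24 measured 219, 228, 440.2, 156 and 315 and 1307, 634, 942, 391 and 287 TPM. Its groups overlapped through control 3, control 5, mannose 4 and mannose 5, and its difference was 1.27 (0.39 to 2.14). The mannose receptor Mrc1 measured 20.3, 36.1, 45, 38.2 and 29.7 and 62.99, 51.8, 64.8, 40.5 and 44.4 TPM, with mannose 4 and mannose 5 below control 3, and a difference of 0.65 (0.20 to 1.11). The scavenger receptors Cd163 (0.98) and Msr1 (0.76) and the chitinase-like Chil3 (0.76) were the other members at an unadjusted p under 0.05. The list median stayed 0.23 to 0.29 above all genes without control 1, without mannose 3, without both and with the length trend removed. Retnla, another gene of this programme, instead varied between single tumours, at 0.12, 67.05, 12, 12.2 and 0.80 TPM in controls and 3.49, 2.87, 41.8, 7.76 and 6.94 TPM in mannose tumours.

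Monocyte chemokines and their receptors were higher in 13 of 14 means, with a median of 0.60 (0.49 above all genes). At an unadjusted p under 0.05, 4 of 14 were higher (5.53% of all genes), and 1 had no overlap (1.51%). Ccr1, a receptor of inflammatory CC chemokines, measured 11.5, 19.96, 15.6, 18.5 and 14.7 TPM in controls and 28.4, 21.7, 33.8, 22.9 and 26.4 TPM in mannose tumours, without overlap, a log2 difference of 0.70 (0.34 to 1.07). Ccl12 and Ccl7, ligands that draw monocytes through Ccr2, differed by 0.66 (0.23 to 1.09) and 0.65 (0.17 to 1.12), and Ccr2 by 0.65 (0.08 to 1.23). Ccl2, the best known ligand of that receptor, had a log2 difference of 0.12 (-0.29 to 0.53) and overlapping groups. Mannose 3 was highest for 13 of the 14 genes, and without it and control 1 the median was 0.10 above all genes.

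**Figure D3:**
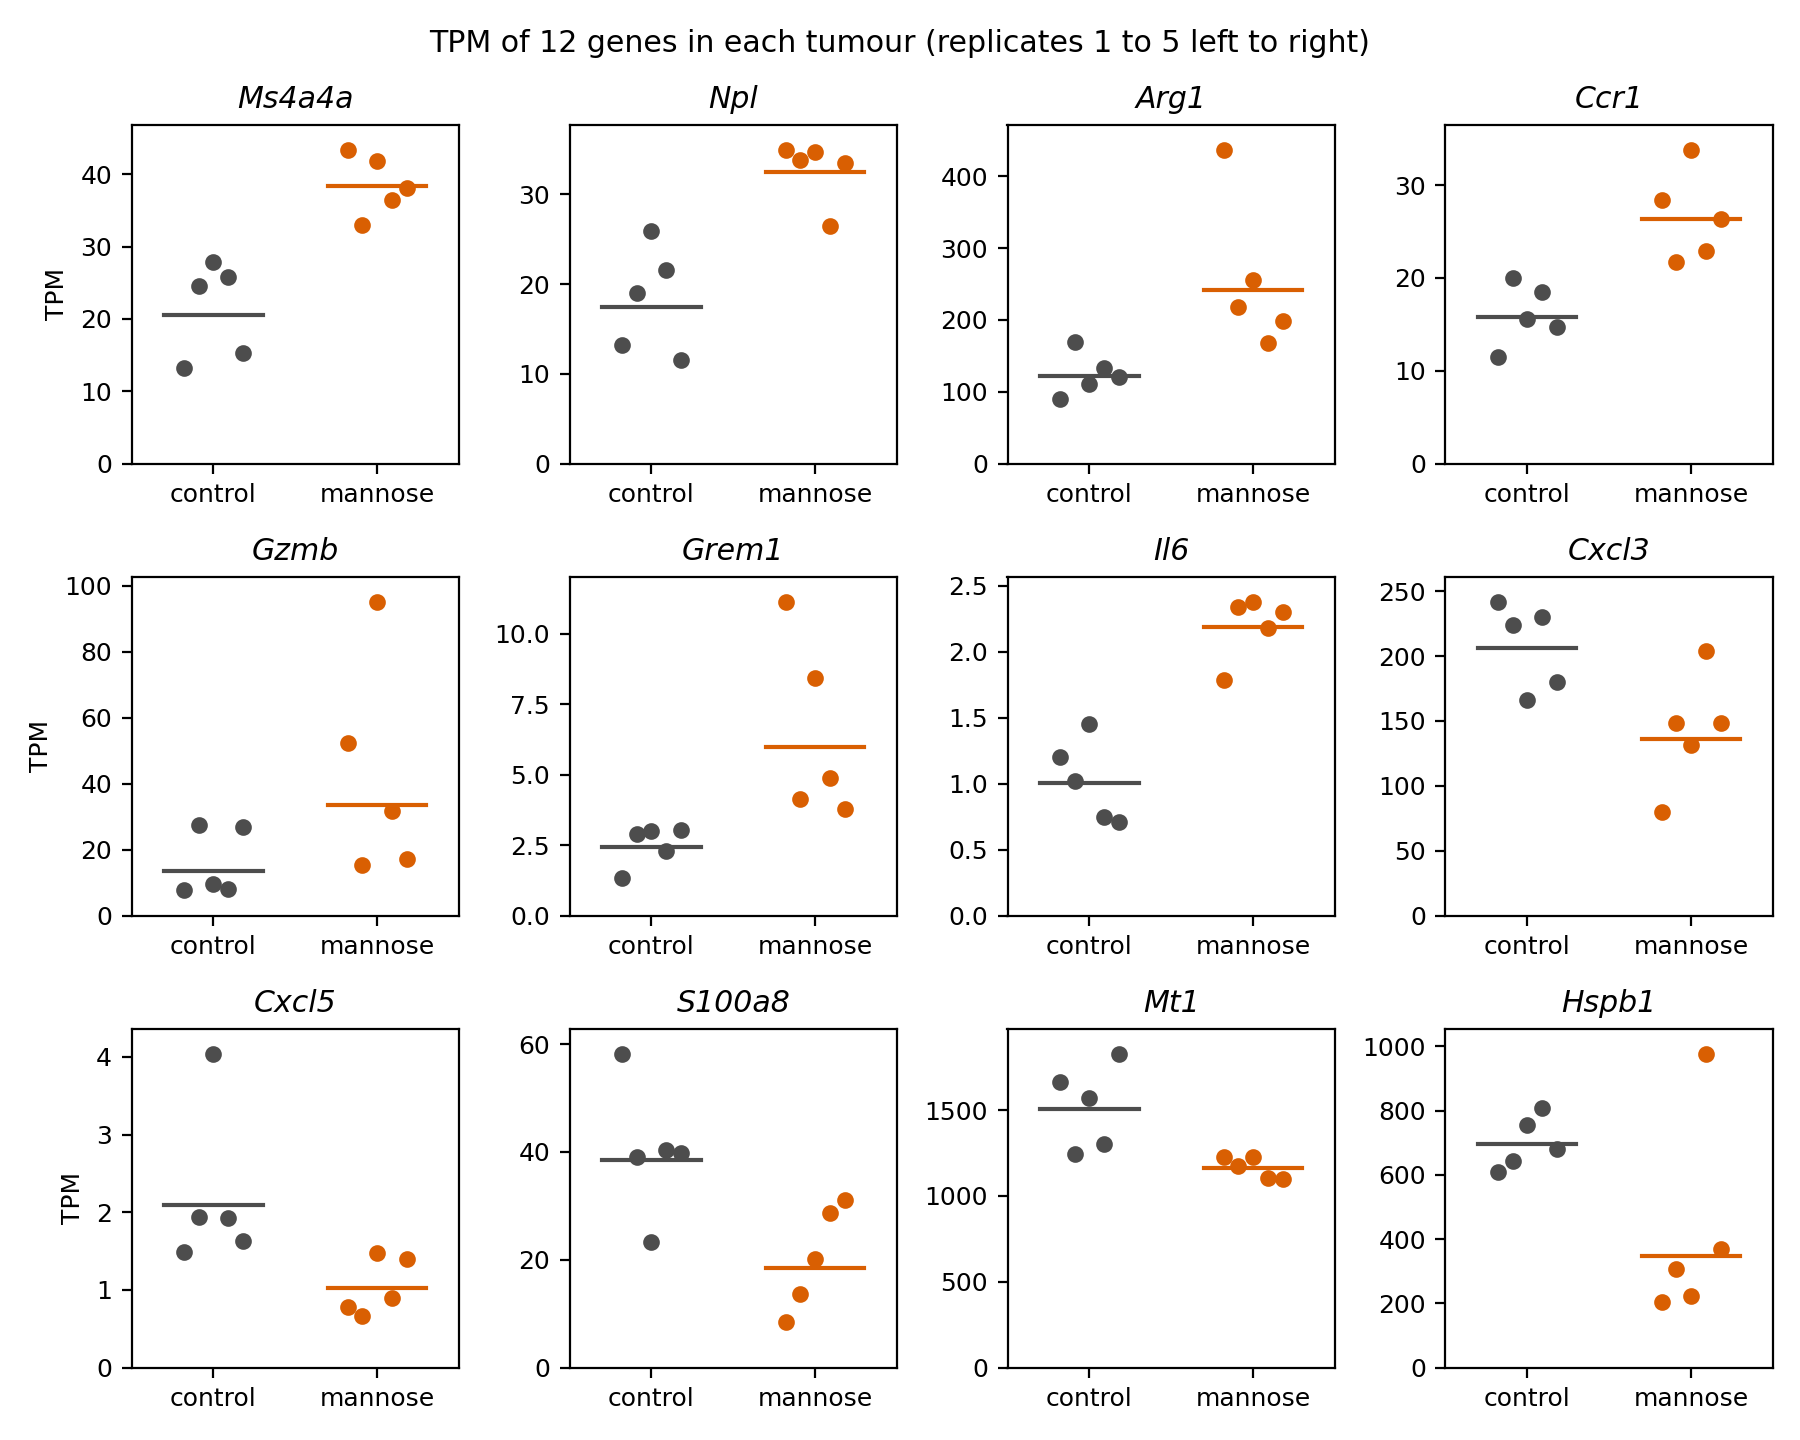
TPM (y axis, from 0) of 12 genes in each tumour, controls in grey and mannose tumours in orange, replicates 1 to 5 from left to right; the bar is the group mean of log2(TPM + 1) turned back to TPM. Ms4a4a, Npl, Ccr1, Grem1, Il6, Cxcl5 and Mt1 show no overlap between the groups, and Hspb1 has mannose 4 above all controls.

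Inflammatory cytokines and neutrophil chemokines did not move as 1 group. Il6 had the smallest p of all genes, at 1.20, 1.02, 1.45, 0.75 and 0.71 TPM in controls and 1.79, 2.34, 2.38, 2.18 and 2.30 TPM in mannose tumours, without overlap, and a log2 difference of 0.67 (0.35 to 0.98). Its level is near the 1 TPM filter. Tnf, a cytokine of macrophages, and Il1a, an interleukin-1, also had higher means, by 0.71 (0.19 to 1.23) and 0.67 (0.18 to 1.16). Il1b measured 63.1 to 120.3 TPM with a difference of 0.28 (-0.05 to 0.60).

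The neutrophil-attracting chemokines lay in the other direction. Cxcl3 measured 242, 224, 166, 230.0 and 180.4 TPM in controls and 79.8, 148, 131, 204 and 148 TPM in mannose tumours, with mannose 4 inside the control range, a log2 difference of -0.59 (-1.06 to -0.13). Cxcl5 was low in both groups, at 1.49, 1.94, 4.04, 1.92 and 1.63 and 0.78, 0.67, 1.47, 0.90 and 1.40 TPM, without overlap, a difference of -0.62 (-1.08 to -0.16). Cxcl2 differed by -0.57 (-1.12 to -0.01). Of the 16 tested genes in the list, 3 were higher and 3 lower at an unadjusted p under 0.05, against 5.53% and 0.693% of all genes. Neutrophil markers were likewise mixed, with 2 higher (Mmp9, a gelatinase, 0.57, and Trem1, 0.39) and 1 lower of 10. The lower one, S100a8, a calgranulin of neutrophils, measured 58.2, 39.1, 23.2, 40.4 and 39.8 TPM in controls and 8.51, 13.7, 20.1, 28.7 and 31.1 TPM in mannose tumours, a log2 difference of -1.02 (-1.75 to -0.29). Control 3 was the only control below mannose 4 and mannose 5. Its partner S100a9 differed by -0.91 (-1.92 to 0.09), and the neutrophil receptor gene Csf3r by -0.14 (-0.78 to 0.51).

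Cxcl3 and Il6, 2 genes of this list that lay in opposite directions, both hold a motif like the κB site of NF-κB (GGGAA, any 3 bases, CC) in the 250 bases before the start. It was found for 5 of 13 genes of the list and for 6.97% of tested genes with a promoter. Capitals mark the motif or its reverse complement.
Cxcl3 (chr5:90785851-90786100, plus strand): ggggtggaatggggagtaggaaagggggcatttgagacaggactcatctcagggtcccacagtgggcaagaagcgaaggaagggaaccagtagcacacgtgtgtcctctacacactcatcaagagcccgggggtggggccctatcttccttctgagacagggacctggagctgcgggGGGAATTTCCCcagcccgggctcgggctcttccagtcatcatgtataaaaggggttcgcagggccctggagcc
Il6 (chr5:30012864-30013113, plus strand): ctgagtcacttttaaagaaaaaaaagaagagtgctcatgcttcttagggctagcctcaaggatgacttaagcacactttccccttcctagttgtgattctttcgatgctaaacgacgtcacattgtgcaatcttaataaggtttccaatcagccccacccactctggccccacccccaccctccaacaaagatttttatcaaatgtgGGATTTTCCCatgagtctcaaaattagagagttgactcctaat
In Cxcl3 the capitals cover 2 overlapping matches on opposite strands, 73 and 72 bases before the start, and in Il6 there is 1 match, 43 bases before it.

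Cytotoxic genes had higher means with mannose in 15 of 15 cases, with a median of 0.66 (0.54 above all genes) and 5 at an unadjusted p under 0.05, all granzymes (5.53% of all genes were higher at that level). Only Gzme kept such a p without control 1, without mannose 3 and without both. Gzmb, a granzyme of T and NK cells, measured 7.71, 27.3, 9.57, 8.07 and 26.8 TPM in controls and 52.2, 15.2, 95.1, 31.6 and 17.1 TPM in mannose tumours. Mannose 3 and mannose 1 were high, mannose 2 and mannose 5 lay within the control range, and the log2 difference was 1.24 (0.10 to 2.39). Gzme measured 61.1, 93.01, 75.5, 55.02 and 71.6 and 102, 80.7, 184, 128 and 86.8 TPM, with a difference of 0.66 (0.17 to 1.14); Gzmc, Gzmd, Gzme and Gzmf are similar neighbours between which reads may be split. Mannose 3 was highest for 14 of the 15 genes, and without it the median was 0.20 above all genes.

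T cell markers followed single tumours. Cd3e, a chain of the T cell receptor complex, measured 0.58, 2.24, 4.62, 1.63 and 7.16 TPM in controls and 5.26, 2.85, 10.6, 1.89 and 2.26 TPM in mannose tumours, and Cd8a 0.07, 1.48, 1.44, 0.34 and 3.11 and 2.94, 0.29, 7.14, 0.26 and 0.13 TPM. Control 5, mannose 1 and mannose 3, the tumours with high interferon-gamma genes, also held the most Cd8a. The log2 difference was 0.42 (-0.62 to 1.46) for Cd3e and 0.14 (-1.09 to 1.38) for Cd8a. All 16 T cell genes were highest in mannose 3 and 13 were lowest in control 1. Their median was 0.23 above all genes in the 10 tumours and 0.11 below without those 2, with 5 of 14 means higher. Among checkpoint and regulatory genes, Ctla4 (difference 0.63, 95% interval 0.15 to 1.11) and Il2ra (difference 0.70, 95% interval 0.17 to 1.23), both carried by regulatory T cells, had an unadjusted p under 0.05. They were 1 of 14 checkpoint and 1 of 9 regulatory genes, against 5.53% of all genes. Neither had such a p without control 1 and mannose 3. Control 1 was the lowest tumour for 12 of the 14 and 9 of the 9. Pdcd1, which encodes PD-1, differed by 0.08 (-1.05 to 1.21) and its ligand gene Cd274 by 0.40 (-0.53 to 1.33), both with overlapping groups.

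Matrix and fibroblast genes were higher in 26 of 26 and 15 of 16 means, with medians 0.36 and 0.39 above all genes. Col1a1, the main fibrillar collagen chain, measured 40.2, 285, 445, 137 and 161 TPM in controls and 227, 270.4, 757, 275 and 276 TPM in mannose tumours, with mannose 3 highest, control 1 lowest and the other 8 tumours intermingled. Control 1 was lowest for 25 of the 26 matrix genes, 18 of which are in the class of longest transcripts. Without control 1 and mannose 3, 15 of 26 matrix and 10 of 16 fibroblast means were higher, and the medians were 0.08 and 0.01 above all genes. At an unadjusted p under 0.05, 2 of 26 matrix and 1 of 16 fibroblast genes were higher, against 5.53% of all genes, and none without control 1 or without mannose 3. Mmp14 (difference 0.43, 95% interval 0.06 to 0.80), a membrane collagenase, Col12a1 (difference 1.12, 95% interval 0.10 to 2.14) and Postn (difference 0.86, 95% interval 0.07 to 1.65) were those members. All 14 TGF-beta genes were lowest in control 1, and Skil, a repressor in that pathway, had no overlap (2.68, 8.67, 8.69, 8.29 and 6.85 and 9.69, 9.38, 9.13, 9.74 and 8.87 TPM) at a log2 difference of 0.45 (-0.09 to 0.98). Higher genes without overlap were thus 1 of 14, against 1.51% of all genes.

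**Figure D4:**
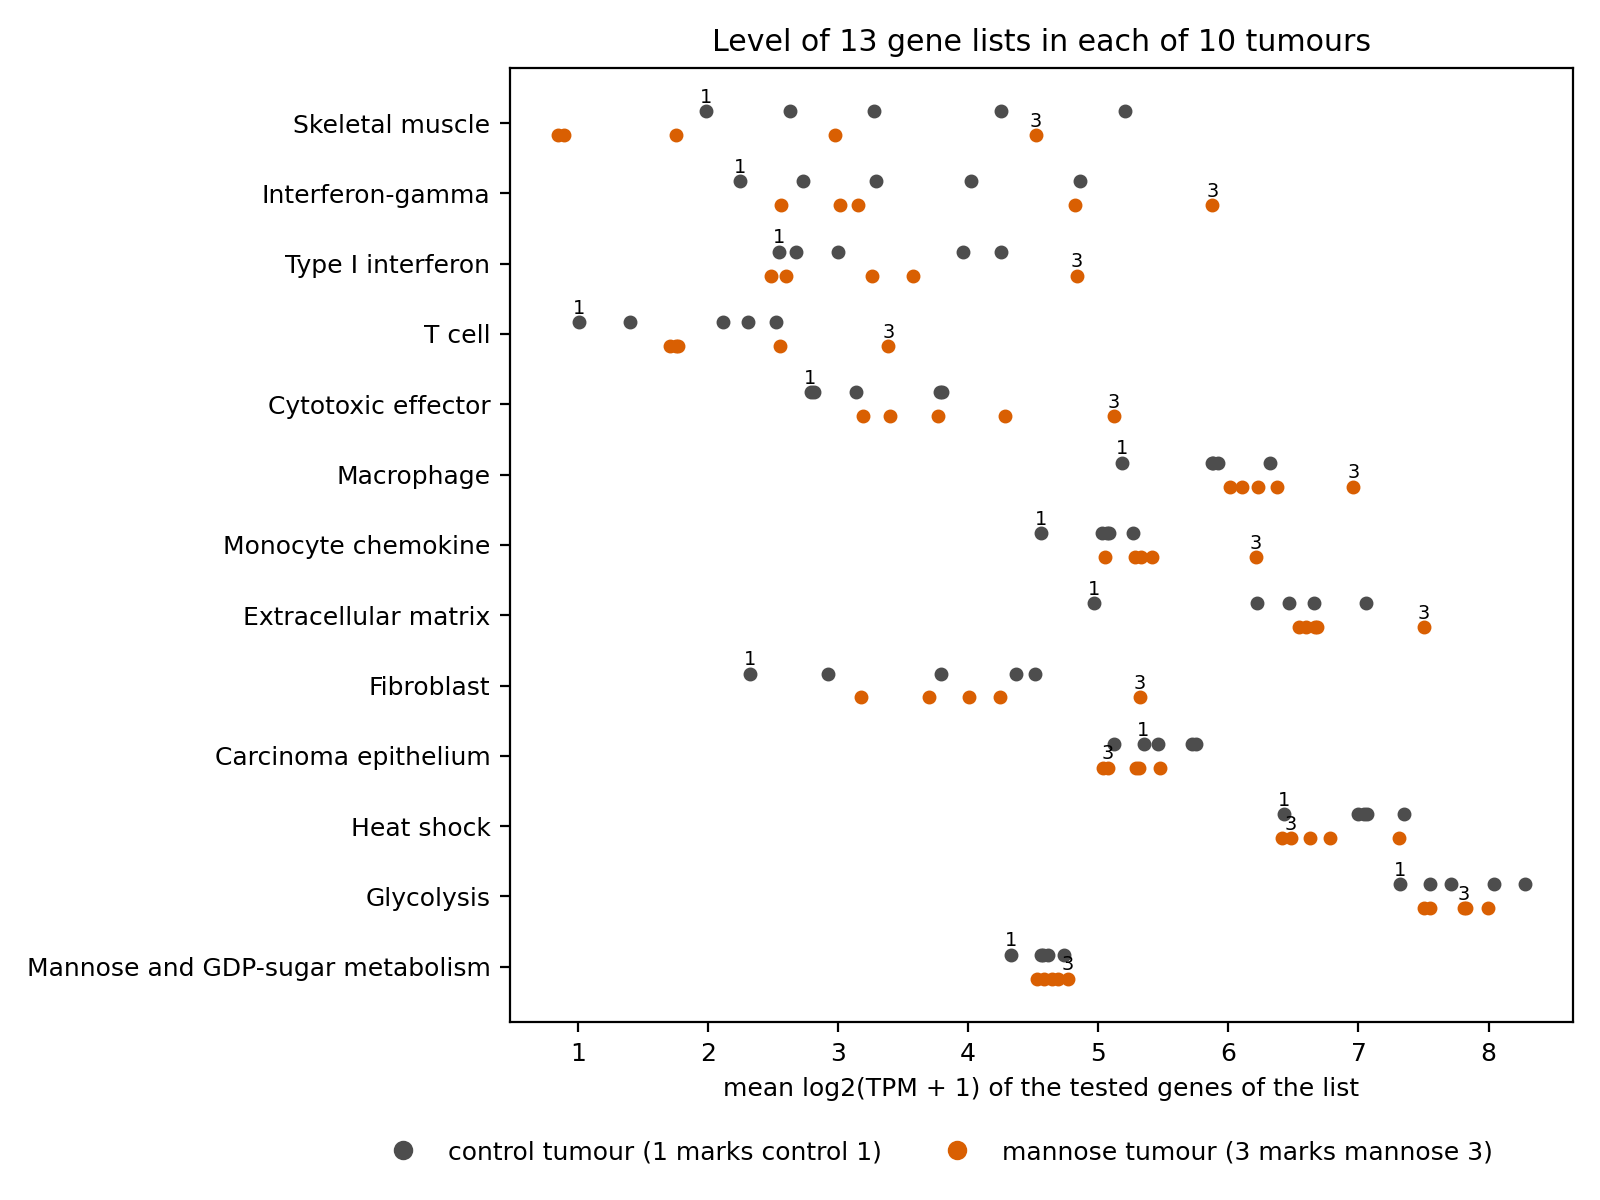
Mean log2(TPM + 1) of the tested genes of 13 lists (x axis) in each tumour, controls in grey and mannose tumours in orange; the digits mark control 1 and mannose 3. Mannose 3 is the highest mannose tumour for the interferon, T cell, cytotoxic, macrophage, matrix and fibroblast lists, and control 1 the lowest tumour of most of them.

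Carcinoma genes lay in the other direction, with 10 of 11 means lower and a median 0.36 below all genes. Krt8 measured 1322, 1151, 1737, 1417 and 1803 TPM in controls and 1330.5, 1399, 1125, 1249 and 1096 TPM in mannose tumours, with overlapping groups and a log2 difference of -0.25 (-0.54 to 0.05). The tight junction gene Cldn3 (difference -0.37, 95% interval -0.72 to -0.01), the epithelial transcription factor Elf3 (difference -0.41, 95% interval -0.80 to -0.03) and Lcn2 (difference -0.78, 95% interval -1.43 to -0.13), an iron carrier, had an unadjusted p under 0.05, 3 of 11 against 0.693% of all genes. Without mannose 3, and without control 1 as well, Lcn2 alone had such a p, and the median was 0.31 and 0.20 below all genes. Without control 1 alone, Elf3 and Lcn2 were lower at that level (1.6% of all genes). With the length trend removed, Krt8, Krt18, Cldn3, Wfdc2, Elf3 and Lcn2 were (3.53% of all genes). Whether a smaller carcinoma share of the sample moved with these genes was not tested.

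Heat shock genes were lower in 11 of 12 means, with a median 0.26 below all genes. At an unadjusted p under 0.05, 1 of 12 was lower (0.693% of all genes). This gene, Hspb1, a small heat shock protein, measured 609, 643, 756, 808 and 679.6 TPM in controls and 204, 308, 224, 977 and 369 TPM in mannose tumours. Of the mannose tumours, 4 lay below every control and mannose 4 lay above every control, and the log2 difference was -0.997 (-1.76 to -0.24). The inducible chaperones Hspa1a (3.02 to 21.1 TPM, difference -0.54) and Hsph1 (42.04 to 99.4 TPM, -0.31) were also highest in mannose 4 among mannose tumours. Mt1, a metallothionein that binds zinc and copper, had no overlap, at 1665, 1245, 1571, 1303 and 1829 TPM in controls and 1226, 1177, 1224, 1105 and 1097 TPM in mannose tumours, a log2 difference of -0.37 (-0.62 to -0.12). Its neighbour and close copy Mt2 overlapped, at 1199.7, 970.4, 1145, 1069 and 1584 and 1009, 928, 1060.0, 868 and 922 TPM (difference -0.30, 95% interval -0.58 to -0.02). The unfolded protein response list had 9 of 17 means higher and 1 gene lower at an unadjusted p under 0.05, Asns, an amino acid response gene (difference -0.32, 95% interval -0.57 to -0.06). Immediate-early genes had 10 of 18 means higher and 1 gene lower at that level, the AP-1 gene Jund (difference -0.34, 95% interval -0.56 to -0.12). Both genes had 1 or more mannose tumours inside the control range.

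Genes that handle mannose had small differences in their means. Mpi, which passes mannose 6-phosphate to glycolysis, measured 9.71, 12.4, 19.8, 11.5 and 13.9 TPM in controls and 14.9, 14.9, 13.5, 13.3 and 13.3 TPM in mannose tumours, a log2 difference of 0.09 (-0.27 to 0.45). Its mannose values lay within the control range. Pmm2 (difference 0.17, 95% interval -0.17 to 0.52), Gmppb (difference 0.12, 95% interval -0.57 to 0.82) and Gmppa (difference -0.14, 95% interval -0.44 to 0.16) of the route to GDP-mannose also overlapped. Of the 20 tested genes of the list, 13 had higher means and the median was 0.06 below all genes. Npl, a lyase that breaks down sialic acid to N-acetylmannosamine, was the one without overlap, 1 of 20 against 1.51% of all genes with higher values. It measured 13.2, 19.1, 25.98, 21.5 and 11.5 TPM in controls and 34.98, 33.8, 34.7, 26.5 and 33.5 TPM in mannose tumours, a log2 difference of 0.86 (0.42 to 1.30). Among lectins that bind mannose or mannose 6-phosphate, M6pr, the cation-dependent sorting receptor of lysosomal enzymes, had no overlap (70.7, 101, 83.1, 94.2 and 83.4 and 111, 109, 106, 103 and 102 TPM, difference 0.30, 95% interval 0.08 to 0.53). Clec4n, the fungal receptor dectin-2 of myeloid cells, differed by 0.40 (0.06 to 0.74). Of the 15 tested lectins, 1 had no overlap (1.51% of all genes) and 3 were higher at an unadjusted p under 0.05 (5.53%). N-glycan assembly genes had a median 0.01 above all genes, with none of 25 at an unadjusted p under 0.05.

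Glycolysis genes had lower means in 14 of 20 cases, with a median 0.19 below all genes and none at an unadjusted p under 0.05. Control 5 was the highest tumour for 17 of the 20, with Slc2a1, the main glucose transporter, at 152, 178, 220.1, 186 and 337 TPM in controls and 297, 213, 173, 172 and 150.0 TPM in mannose tumours. Khk, which phosphorylates fructose and belongs to no list here, had no overlap, at 75.7, 64.4, 66.8, 69.3 and 76.3 and 44.5, 62.5, 53.6, 63.9 and 63.9 TPM (difference -0.29, 95% interval -0.55 to -0.04). Sterol synthesis was higher in 16 of 17 means (74.4% of all genes), with a median 0.08 above all genes, and Hmgcs1 (difference 0.41, 95% interval 0.07 to 0.75) and Idi1 (difference 0.41, 95% interval 0.0001 to 0.81) had an unadjusted p under 0.05. These were 2 of 17, against 5.53% of all genes. With the length trend removed, 10 of 17 means were higher, the median was 0.03 above all genes and neither gene had such a p. Cell cycle genes were higher in 23 of 24 means (74.4% of all genes), with a median 0.10 above all genes. At an unadjusted p under 0.05, 3 of 24 were higher (5.53% of all genes), and 1 had no overlap (1.51%). Pcna, the sliding clamp of DNA replication, had no overlap, at 134, 157, 149.8, 142 and 130.0 TPM in controls and 182, 187, 168, 160.2 and 185 TPM in mannose tumours, a log2 difference of 0.31 (0.11 to 0.50). The proliferation marker Mki67 measured 7.55, 12.7, 22.6, 13.02 and 17.1 and 17.9, 20.1, 19.7, 17.03 and 16.4 TPM (difference 0.38, 95% interval -0.12 to 0.87), with control 3 above every mannose tumour. The cell cycle median stayed 0.10 above all genes without control 1, without mannose 3, without both and with the length trend removed.

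**Figure D5:**
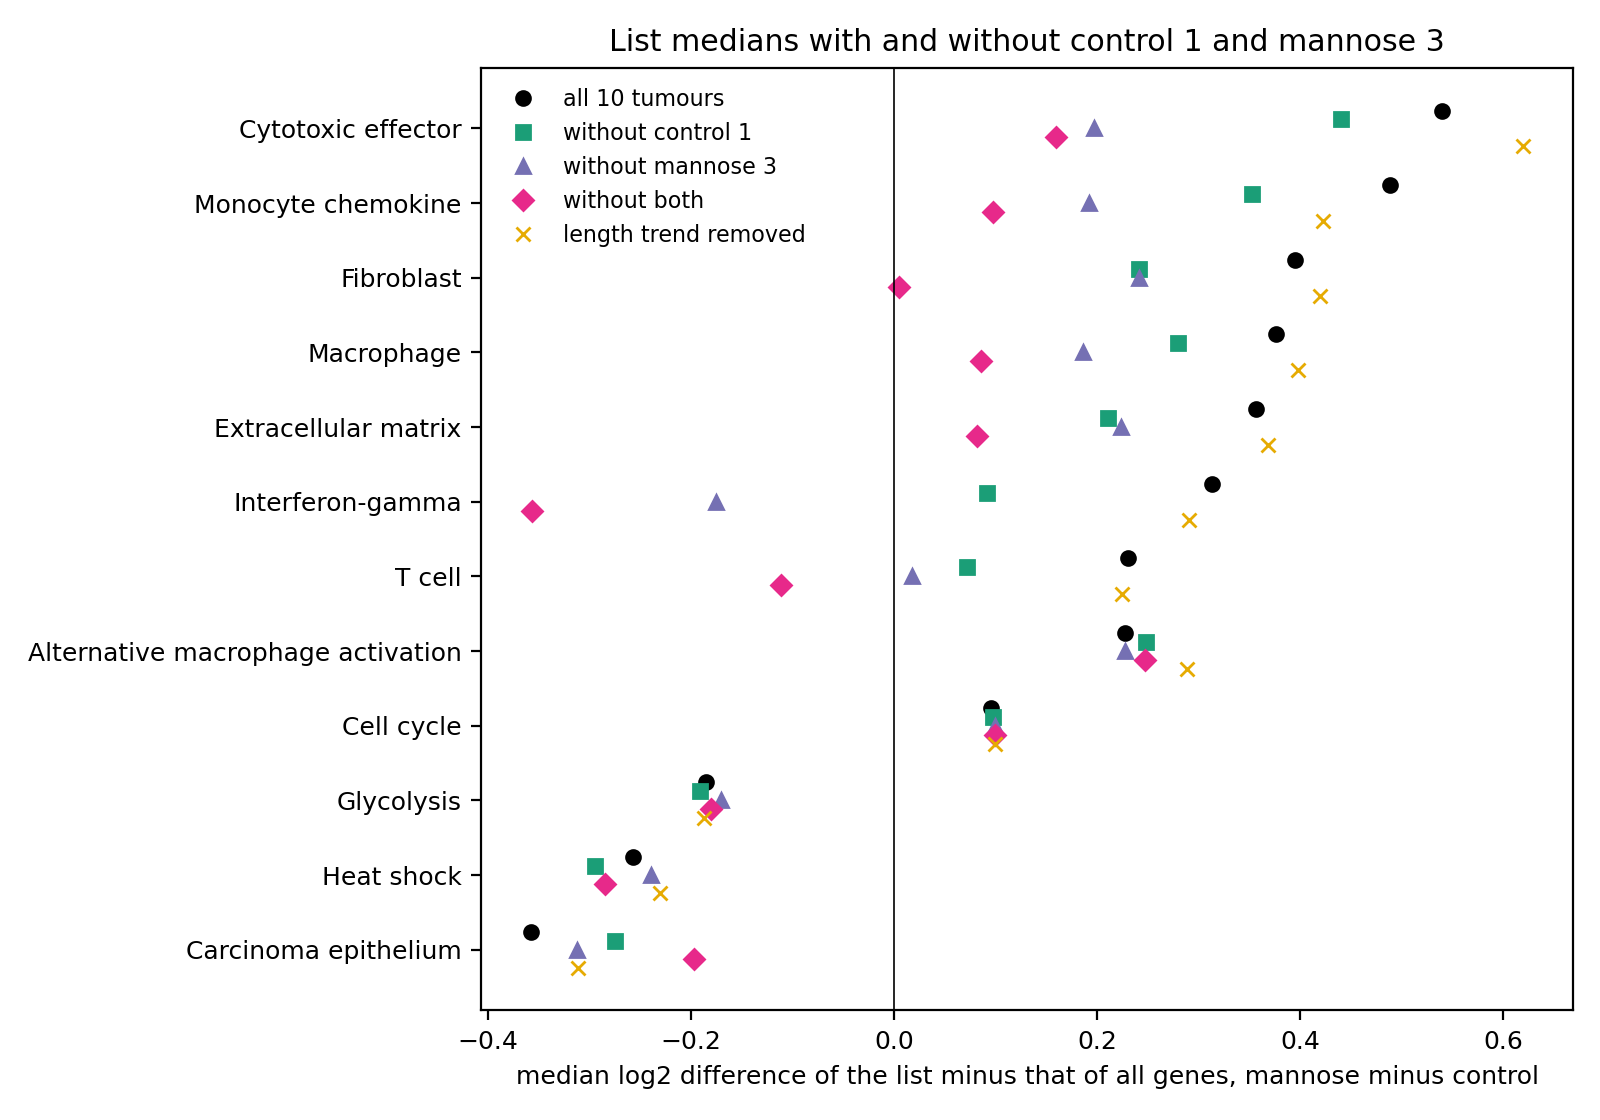
Median log2 difference (mannose minus control) of 12 lists minus that of all genes (x axis) with all 10 tumours, without control 1, without mannose 3, without both, and with the length trend removed. The interferon-gamma median runs from 0.31 to -0.36 and the T cell median from 0.23 to -0.11. The other lists shown keep their sign, though the fibroblast median falls to 0.01.

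Since the counts without overlap turned on scaling, the genes that had none under each of 4 further scalings were counted, a step chosen after seeing the data. The scalings were quantile normalization, median-ratio scaling, rescaling without gene classes of high share, and removal of the length trend. All 4 reuse the same tumours and are not independent checks. For any gene, a single one of the 252 possible splits into 5 and 5 tumours leaves no overlap in a given direction. Of the 200 genes with higher values, 18 had no overlap under all 4, and of the 17 with lower values, 5, out of 13282 genes tested. The higher ones were Ms4a4a, Ms4a6d and Npl, described above, and Atp13a3, Grem1, Il1rl2, Ino80c, Lacc1, Lca5, Maf, Mr1, Oip5, Pdik1l, Ptbp3, Rp2, Smc2, Zc3h6 and Zfp810. Maf, a transcription factor of macrophages and T cells, measured 8.33, 16.9, 15.9, 16.4 and 14.6 and 20.4, 19.1, 21.9, 17.7 and 19.97 TPM, a log2 difference of 0.47 (0.08 to 0.85). Lacc1, a metabolic enzyme of macrophages, differed by 0.52 (0.13 to 0.91), and Mr1, which presents microbial vitamin metabolites to T cells, by 0.56 (0.10 to 1.02). Grem1, a secreted inhibitor of bone morphogenetic proteins, measured 1.32, 2.91, 3, 2.30 and 3.02 TPM in controls and 11.1, 4.13, 8.43, 4.88 and 3.80 TPM in mannose tumours, a difference of 1.02 (0.42 to 1.62). Smc2, a condensin subunit, differed by 0.54 (0.18 to 0.90), and Il1rl2, the interleukin-36 receptor, by 0.71 (0.18 to 1.24). The lower ones were Atoh8, Cxcl5, Eif3g, Nle1 and Nol3. Atoh8, a transcription factor also downstream of bone morphogenetic proteins, measured 3.97, 5.02, 4.37, 4.35 and 3.65 TPM in controls and 0.40, 1.90, 2.06, 2.98 and 1.83 TPM in mannose tumours, a difference of -0.97 (-1.50 to -0.44). 

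Other genes without overlap as deposited lost it under some scaling. Qk and Nabp1, an RNA-binding protein and a DNA repair factor, had their lowest control value, by a wide margin, in control 1. Nabp1 measured 6.26, 24.5, 19.1, 23.2 and 22.9 and 32.9, 30.2, 30.8, 30.9 and 25.4 TPM, and Qk 10.04, 33.98, 36.2, 38.5 and 32.3 and 44.2, 42.8, 49, 48.2 and 39.8 TPM. Among lower genes, Efemp1, a matrix glycoprotein, measured 39.03, 39.3, 32.5, 38.1 and 38.1 TPM in controls and 17.7, 28.6, 27.3, 28.6 and 30.8 TPM in mannose tumours, a log2 difference of -0.50 (-0.82 to -0.18). Amhr2, the receptor of anti-Müllerian hormone, measured 41.5, 44.4, 45.7, 52.2 and 53.2 and 37.2, 38.6, 36.1, 31.5 and 41.3 TPM (difference -0.35, 95% interval -0.59 to -0.11), and Igfbp6, a binder of insulin-like growth factor, differed by -0.26 (-0.46 to -0.07). Of the genes with overlap, Adamdec1, a macrophage protease, had one of the smallest p, at 5.88, 5, 12.8, 6.56 and 5.05 and 24.3, 21.04, 16.01, 11.4 and 12.1 TPM (difference 1.18, 95% interval 0.59 to 1.76), with control 3 above mannose 4 and mannose 5. Ephx1 (difference -0.53, 95% interval -0.86 to -0.19), an epoxide hydrolase, and Cp (difference -0.44, 95% interval -0.74 to -0.14), the copper carrier ceruloplasmin, were lower with mannose 4 inside the control range.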

How the data were processed

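RNA of 10 whole HM1 tumours was measured by bulk RNA sequencing, 5 with mannose and 5 control. For each tumour the authors deposited TPM values by gene symbol; that unit follows from the sums of each table, 993815 to 994712. Tools named in the submitters' processing notes are HISAT, RSEM and fastp, and the build is GRCm39, without versions or order, and the annotation release is not given in the sources used here. Total RNA was extracted with TRIzol, per the labels' protocols. TPM keeps no read depth, so counting error cannot be given.

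From these values, rows that share a symbol were summed (54013 rows to 53112 symbols), and genes with at least 1 TPM in at least 5 of the 10 tumours were kept. Mannose minus control was tested on log2(TPM + 1), pseudocount 1, by limma 3.58.1 (R 4.3.3), using a mean-variance trend, with Benjamini-Hochberg adjustment over all 13282 genes, threshold 0.05. Fold changes on that scale understate changes of low genes. Library measures were compared by 2-sided exact permutation tests, whose smallest possible p is 0.00794. Transcript lengths are medians over GENCODE M21 basic transcripts, and promoters come from RefSeq (GRCm38.p6). Both follow an older build than the files and were matched by symbol. Python 3.11.15 and matplotlib 3.10.9 were used for summaries and figures.

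The comparison, the 44 gene lists (715 genes, 616 tested) and the rule for named genes were chosen with earlier results of these data known. Named were genes with a mean of at least 5 TPM, predicted, segment and small RNA genes left out. They are the 20 highest, the 20 most variable within groups, the 15 higher and 10 lower with the largest difference among those without overlap, and, by smallest p, 10 in each direction. Added were 10 genes in each direction per tumour that stood apart and 12 at each end of 2 principal components. From each list, up to 4 by level were named, with those at an unadjusted p under 0.05 or without overlap, and a panel of 9. From these the text shows a selection, some genes are not reported here, and the further genes kept apart by every scaling were chosen after their values were seen.

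Alternatives changed the pseudocount, the filter, the scaling, the weights, the replicate block or the tumours included. Removing the length trend and counting genes without overlap under 4 scalings were added after seeing the data.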

Additional observations from a re-analysis of the deposited data

Results flagged for a closer look

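Among library measures, list levels and named genes, 306 groups of 5 tumours were examined for a tumour far from the other 4, and 23 had one. The rule flags about 1 in 20 groups of independent, normally distributed values. Many of the genes were chosen by their spread, p or lack of overlap in these same tumours, so that rate cannot be set against the 23. The gap to the nearest tumour exceeded 0.71 of the group's range in each case. What set these tumours apart was not tested. Control 1 had 12345 symbols at 1 TPM or more, against at least 13222 in the other controls. The following values are in log2(TPM + 1), with the nearest of the other 4 in brackets.

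Control 1 was the low control for 8 of them. The level was 3.91 (4.96) for the TGF-beta list and 2.26 (2.95) for genes that sense microbial metabolites. Among genes it was 3.46 (5.06) for Qk, 2.86 (4.33) for Nabp1, 1.88 (2.97) for Skil and 2.63 (3.59) for Atp13a3, a polyamine transporter. It was 4.06 (5.08) for the scavenger receptor Msr1 and 2.19 (2.76) for the myeloid receptor Trem1. Control 3 was high for Adamdec1, 3.79 (2.92), and for Cxcl5, 2.33 (1.56), and low for Efemp1, 5.06 (5.29).

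Mannose 3 was the high mannose tumour for the matrix list, 7.50 (6.68), the peripheral nerve list, 3.43 (2.53), the mannose-binding lectins, 4.90 (4.23), and Ccr2, 3.42 (2.56). Mannose 1 was high for hypoxia genes, 6.40 (5.97), and low for Efemp1, 4.22 (4.82). Mannose 4 was low for nuclear respiratory chain genes, 7.33 (7.43), Npl, 4.78 (5.11), and Hint2, a mitochondrial hydrolase, 5.68 (5.81). Mannose 5 was high for Cip2a, a protein phosphatase inhibitor, 3.37 (2.94), and for Yjefn3, 2.66 (2.32).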

How the results depend on the processing

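No gene passed the adjusted threshold by limma with all 10 tumours or under any of the 20 alternatives. The 735 higher and 92 lower genes at an unadjusted p under 0.05 became 1225 and 229 without the filter, 303 and 441 under quantile normalization and 346 and 421 with median-ratio scaling. They became 1297 and 321 with array weights and 425 and 458 with the length trend removed. Rescaling without classes of high share gave 155 lower, and leaving out control 1 and mannose 3 gave 248 lower. Leaving out 1 tumour gave 485 (without mannose 5) to 977 higher and 70 to 212 (without control 1) lower. The 200 higher and 17 lower genes without overlap became 47 and 85 under quantile normalization, 63 and 102 with median-ratio scaling, 96 and 35 with rescaling and 70 and 87 with the length trend removed. Without the filter 28 were lower. With fewer tumours overlap is easier to avoid: 242 to 522 were higher and 23 to 66 lower with 1 left out, and 421 and 136 without control 1 and mannose 3. The higher count moved by over 1.5 times without control 2, control 3, mannose 3, mannose 4 or mannose 5, and the lower count without any single tumour other than control 4 and control 5.

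The median log2 difference of 0.12 was 0.02 without control 1, and -0.0049 and -0.010 under quantile normalization and with median-ratio scaling. The log2 difference of Mpi turned to -0.060 under quantile normalization and -0.045 with median-ratio scaling, and with 1 tumour left out ran from -0.011 (without control 1) to 0.229 (without control 3). That of Pdcd1 turned to -0.092 under quantile normalization, -0.00518 with the length trend removed and -0.590 without control 1 and mannose 3, and with 1 tumour left out ran from -0.297 (without mannose 3) to 0.365 (without control 5). Cd8a ran from -0.089 (without control 1) to 0.395 (without mannose 5), with no value without control 2, control 3, control 5, mannose 1 or mannose 3, where it failed the filter, and Cd274 reached -0.161 without control 1 and mannose 3. With 1 tumour left out, mannose minus control ran from -0.480 to 0.024 percentage points for the share of the 10 highest symbols and from -0.465 to 0.445 for predicted genes. The cause was not tested.

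A replicate block, pairing tumours of the same number, gave 611 higher and 76 lower genes at an unadjusted p under 0.05 and no adjusted call. The deviations of same-numbered tumours correlated at -0.0548, -0.232, 0.28, 0.161 and -0.511, and 2 of 5 correlated best with their own number, so the numbers were not taken as pairs. Depth is unknown, so the counting error behind low values could not be weighed.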

Other observations

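Several of the lists not described above followed single tumours. Type I interferon genes, the antiviral response, were higher in 15 of 24 means with a median log2 difference of 0.04 (0.08 below all genes). Mannose 3 was highest for 20 of the 24, and the direction turned without it, with 3 of 24 means higher (median 0.45 below all genes), and 0 of 24 without control 1 as well (0.54 below). MHC class I genes had a median of 0.12 and MHC class II genes of 0.15, with 12 of 14 and 10 of 10 means higher, and mannose 3 was highest for 12 and 8 of them. Without mannose 3, 3 of 14 and 5 of 9 means were higher. Without control 1 as well, 0 of 14 and 0 of 9 were, with medians 0.24 and 0.21 below all genes. Dendritic cell genes had 9 of 11 means higher (median 0.11) and lysosomal genes 18 of 20 (0.14), and without control 1 and mannose 3, 3 of 11 and 5 of 20. Endothelial genes had 6 of 13 means higher and a median 0.12 below all genes. Without control 1 and mannose 3 they had 12 of 13 lower, a median 0.37 below all genes and 3 lower at an unadjusted p under 0.05 (1.9% of all genes), Tie1, Eng and Cldn5. Mast cell genes had 8 of 9 means lower (median -0.36), with Mcpt4, a chymase, at 8.28, 14.8, 30.8, 38.1 and 75.3 TPM in controls and 11.5, 13.2, 36.99, 10.3 and 22.7 TPM in mannose tumours. None of the 9 had an unadjusted p under 0.05 with all 10 tumours. Without control 1 and mannose 3, Cma1, Cpa3, Mcpt4, Tpsb2, Tpsab1 and Hdc were lower at that level (1.9% of all genes). Haemoglobin and other erythroid genes had 5 of 5 lower (-0.47), with Hbb-bs at 27.2 to 539 TPM. Adipocyte genes had 5 of 8 lower (-0.19), with the complement protease Cfd at 0.49, 9.68, 11.4, 20.8 and 6.48 and 0.76, 0, 45.5, 0.48 and 2.23 TPM. Without control 1 and mannose 3, Cfd, Fabp4 and Car3 were lower at an unadjusted p under 0.05 (1.9% of all genes). In the endothelial, mast cell and adipocyte lists, mannose 3 had the highest level among mannose tumours and control 1 the lowest among controls. The same was true of the type I interferon, MHC, dendritic cell and lysosome lists. Leaving both out therefore shifts these lists toward lower values with mannose. The B and plasma cell list had 2 of its 10 genes tested, the keratinocyte list 2 of 12 and the mesothelium and ovarian stroma list 0 of 12.

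Hypoxia genes had 8 of 15 means higher (median 0.01), and control 5 was highest for 9. The unfolded protein response had 9 of 17 (0.01) and immediate-early genes 10 of 18 (0.04), with Asns and Jund, already given, as the lower calls with all 10 tumours. Without control 1, Herpud1 and Asns and the immediate-early genes Fos, Fosb, Jund and Atf3 were lower at an unadjusted p under 0.05 (1.6% of all genes). The same genes were lower at that level without control 1 and mannose 3 (1.9%). Ddit3, a stress transcription factor, was among the genes that set tumours apart irrespective of group, at 36.02, 42.7, 29.5, 193 and 315 TPM in controls and 48.6, 121, 27.6, 137 and 139 TPM in mannose tumours. Nuclear respiratory chain genes had 14 of 25 means higher (0.04) and mitochondrial genome genes 9 of 13 (0.17), with mt-Cytb (difference 0.28, 95% interval 0.05 to 0.51) and mt-Nd5 (difference 0.34, 95% interval 0.03 to 0.65) at an unadjusted p under 0.05. These were 2 of 13, against 5.53% of all genes. Pentose phosphate and NADPH genes had 11 of 15 higher (0.06), with Idh1, a source of NADPH, at 13.9, 17.7, 24.01, 20.4 and 17.7 TPM in controls and 25.8, 26.9, 24.3, 23.1 and 24.6 TPM in mannose tumours (difference 0.41, 95% interval 0.11 to 0.71). Genes that sense microbial metabolites had 16 of 18 higher (0.15), with Tiparp, a target of the aryl hydrocarbon receptor, at a log2 difference of 0.40 (0.0004 to 0.79). Among p53 and cell death genes (9 of 16 higher, 0.11), Sesn1, a stress-induced sestrin, was one with an unadjusted p under 0.05 and differed by 0.50 (0.05 to 0.94). At that level the pentose phosphate, microbial metabolite and p53 lists had 1 of 15, 1 of 18 and 2 of 16 higher, against 5.53% of all genes. Of 14 small non-coding RNAs 5 were tested, with 2 means higher. Bc1, a small brain RNA copied from a retroposed gene, is named after its values were seen, at 10.4, 0, 0, 14.2 and 19 TPM in controls and 20.9, 0, 0, 0 and 4.71 TPM in mannose tumours.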
